A study of Homo sapiens with 6 samples.

Results

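The 10 genes described here encode the machinery that modifies and folds procollagen in the endoplasmic reticulum. They are the prolyl 4-hydroxylase subunits P4HA1, P4HA2, P4HA3 and P4HB, the lysyl hydroxylases PLOD1, PLOD2 and PLOD3, the prolyl 3-hydroxylase P3H1 with its partner CRTAP, and SERPINH1, which encodes the collagen chaperone HSP47. They were picked by symbol from a table of 22701 genes, all 10 were found, and 9 had a mean of at least 1 FPKM (fragments scaled to gene length and library size), the level above which 10695 genes were tested. P4HA3 lay below that level and was left out of that test. It is given by its values, an exact permutation p and a ratio of fragments.

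The RNA came from LX-2, an established human hepatic stellate cell line that serves as a model of the collagen-producing cell of the fibrotic liver. Polyadenylated RNA was sequenced in 3 libraries from cultures given TGF-β, at a dose the labels give as 5 µg/mL, and in 3 from cultures given this TGF-β and 20 µM of ligustilide (LIG), a phthalide of Angelica and Ligusticum roots. Doses of this cytokine are commonly in ng/mL, added to the medium, whereas the series text speaks of transfected cells, and neither the unit nor the way of giving it could be checked. TGF-β was present in both groups, no library without it was analysed here, and the labels give neither a treatment time nor a statement that replicates were separate cultures. All p-values therefore measure the spread between these libraries, which may be technical.

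Collagen chains are hydroxylated while they are still unfolded. Prolyl 4-hydroxylase, a tetramer of catalytic α subunits and of the disulphide isomerase P4HB, makes the 4-hydroxyproline that keeps the triple helix stable at body temperature. Lysyl hydroxylases make the hydroxylysine that carries sugars and forms the strongest crosslinks of fibrils. A few prolines of some collagen chains are 3-hydroxylated by the complex of P3H1, CRTAP and cyclophilin B. HSP47 holds the finished helix together on its way to the Golgi. The hydroxylases use oxygen, iron, 2-oxoglutarate and ascorbate, and stellate cells make much of this machinery when they turn into myofibroblasts.

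Depth was even, with the deepest library holding 1.022 times the fragments of the shallowest and a tested gene holding a median of 1783 fragments. A pair of libraries stood apart in summed FPKM, with 348518 for TGF-β replicate 2 and 362034 for LIG replicate 3 where the other 4 lay between 324022 and 328949. The first principal component of log2(FPKM + 1), the axis of largest variance, held 55.1% of it. On that axis these libraries lay at 7.8 and 18.1 and the other 4 from -9 to -5.4, so it did not separate the groups. Of 13 markers of stellate cells and myofibroblasts, 12 were matched and 7 had a mean of at least 1 FPKM. VIM was at 1832 and 1872 FPKM in the groups without and with LIG, and TAGLN at 318 and 271. ACTA2 was at only 2.77 and 2.97 FPKM, and DES was near 0. COL1A1 was at 665 and 503 FPKM, but COL1A2 at only 2.70 and 3.87. PDGFRA, RGS5, LUM and DCN had means under 1 FPKM in both groups. The endothelial markers summed to at most 0.325 FPKM in a library, and the hepatocyte list summed to 3.57 to 4.07 without and 3.33 to 4.93 FPKM with LIG, nearly all of it SERPINA1. The macrophage and leukocyte list summed to 12.9 to 15.0 FPKM without and 14.0 to 15.6 with LIG, carried by CD68 (means of 13.1 and 14.3 FPKM), while PTPRC reached at most 0.0160. The epithelial list summed to 13.6 to 13.9 without and 11.2 to 11.9 FPKM with LIG, carried by SOX9 and KRT7, with EPCAM at most 0.0659 FPKM; the part of either list in the results was not tested. In bulk RNA, fewer cells that express a gene and less RNA per cell cannot be told apart.

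With LIG, the mean FPKM of P4HA1 fell by 29.3%, and P4HA1 was the single gene of the 9 tested that changed by the test over all genes. P4HA2, PLOD2 and SERPINH1 differed by -13.9%, -14.8% and -14.1% in mean FPKM, with every LIG library below every TGF-β library, and did not pass. P4HB, PLOD1, PLOD3, P3H1 and CRTAP had overlapping groups and differences in mean FPKM between -3.7% and 4.8%. The count of 1 lower gene among 9 stands beside 0.505% of all genes tested being called lower. None of the 9 was called higher, against 0.187% of all genes (limma on log2(FPKM + 1), Benjamini-Hochberg adjusted, two-sided). At an unadjusted p under 0.05, 4 of the 9 were lower and 0 higher, beside 4.21% and 4.20% of all genes. With limma voom on recovered fragments, 1 was called lower and 0 higher, beside 0.524% and 0.196% of all genes.

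**Figure D1:**
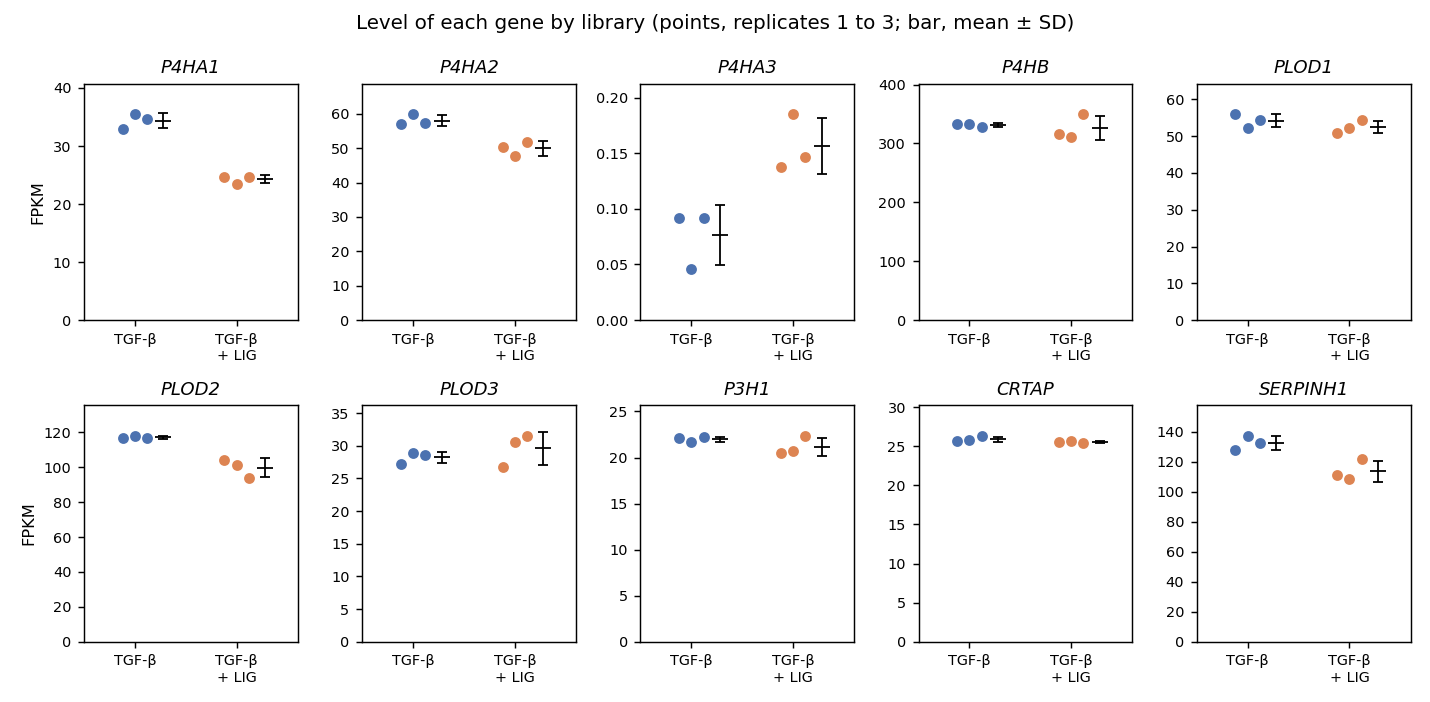
FPKM of each of the 10 genes (vertical axes from 0) in the 3 TGF-β libraries (blue) and the 3 libraries with TGF-β and LIG (orange), with the mean and SD of each group. The groups are apart, LIG lower, for P4HA1, P4HA2, PLOD2 and SERPINH1, and overlap for P4HB, PLOD1, PLOD3, P3H1 and CRTAP; P4HA3 stays below 0.2 FPKM.

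The promoters of the 4 genes with lower values in every LIG library are shown with matches to the core letters of hypoxia response elements, since several of these genes are textbook hypoxia targets. The windows run from 250 bases before to 50 bases after a RefSeq transcription start (GRCh38.p14), 5′ to 3′ on the gene's strand. Capitals mark ACGTG or GCGTG on either strand, so that CACGT is ACGTG read on the other strand. The windows are P4HA1 at chr10:73096817-73097116, PLOD2 at chr3:146161135-146161434, P4HA2 at chr5:132227042-132227341 and SERPINH1 at chr11:75562003-75562302, the first of its 2 listed starts.
P4HA1: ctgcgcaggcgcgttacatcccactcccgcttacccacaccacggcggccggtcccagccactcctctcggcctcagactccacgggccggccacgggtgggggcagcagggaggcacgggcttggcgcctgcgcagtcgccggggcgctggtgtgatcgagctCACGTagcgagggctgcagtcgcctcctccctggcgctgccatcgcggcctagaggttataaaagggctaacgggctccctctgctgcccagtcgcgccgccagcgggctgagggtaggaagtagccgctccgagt
PLOD2: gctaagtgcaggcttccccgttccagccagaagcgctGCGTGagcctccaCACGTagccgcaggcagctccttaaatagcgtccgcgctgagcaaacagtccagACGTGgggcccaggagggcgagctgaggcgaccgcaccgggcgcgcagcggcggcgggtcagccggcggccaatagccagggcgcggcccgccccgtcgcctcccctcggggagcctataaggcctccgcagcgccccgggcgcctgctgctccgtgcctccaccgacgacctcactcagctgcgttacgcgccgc
P4HA2: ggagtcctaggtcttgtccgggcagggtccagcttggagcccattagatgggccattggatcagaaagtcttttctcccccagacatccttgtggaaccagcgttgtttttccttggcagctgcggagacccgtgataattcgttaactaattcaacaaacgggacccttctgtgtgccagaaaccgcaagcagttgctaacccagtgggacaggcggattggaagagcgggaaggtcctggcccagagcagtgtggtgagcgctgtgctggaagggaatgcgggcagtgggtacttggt
SERPINH1: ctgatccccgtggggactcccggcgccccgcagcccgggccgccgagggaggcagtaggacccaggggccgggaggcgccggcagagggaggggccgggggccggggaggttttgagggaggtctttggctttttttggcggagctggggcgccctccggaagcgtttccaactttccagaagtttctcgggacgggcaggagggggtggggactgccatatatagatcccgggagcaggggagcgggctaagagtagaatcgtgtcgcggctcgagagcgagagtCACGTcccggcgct

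RefSeq windows were matched for 9 of the 10 genes, with 10 windows. ACGTG was found in 3 of the 9 genes, P4HA1, PLOD2 and SERPINH1, which is 33.3%, beside 24.9% of the 27305 genes with a window (a gene counts if any of its windows matches). In P4HA1 the single match began 86 bases before the start, and in PLOD2 the matches began 200 and 146 bases before it. In SERPINH1 the match lay 36 bases after the first start and is the same site that lies 184 bases before the second. None of these matches was part of the palindrome CACGTG, which 8.8% of all genes hold. GCGTG was found in 6 of the 9 genes (66.7%, beside 40.6% of all genes), among them PLOD1, P3H1, CRTAP and P4HB, whose values overlapped between the groups. The SERPINH1 matches to GCGTG lay only in the window of its second start, which is not printed. The P4HA2 window held neither. That window, 132227042 to 132227341, lay inside the annotated gene on the minus strand, far from its upstream end at 132295315. Sequence at that end was not examined, so the absence holds for the printed window only. GAANNTTC, a pair of inverted heat shock element units, was found in PLOD1 and SERPINH1 (22.2% of the genes, beside 8.2% of all genes), in SERPINH1 from 71 bases before the first start. Matches of this length are descriptions of the letters in these windows, and no binding was measured.

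P4HA1 encodes the catalytic subunit of the main form of prolyl 4-hydroxylase and lies on the minus strand of chromosome 10, 73007217 to 73096974 (GRCh38, GENCODE 29). Replicates 1, 2 and 3 held 32.9, 35.4 and 34.6 FPKM with TGF-β alone, and 24.7, 23.5 and 24.6 FPKM once LIG was added; values of the other genes follow in the same order. The LIG libraries lay close together and all far below the lowest TGF-β library. The means were 34.3 ± 1.27 and 24.3 ± 0.68 FPKM (SD, n = 3 each). The fitted log2 change was -0.48 ± 0.06 (SE; 95% interval -0.62 to -0.34; limma adjusted p = 0.0145, and 1.16e-05 to 0.135 over the alternatives). Of the 10695 genes tested, 49 had a more negative change of log2(FPKM + 1), a scale that understates changes of low genes. Between 2621 and 4018 fragments per library stand behind these values.

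The call for P4HA1 depended on the libraries, while its size moved little. Leaving out a library gave log2 changes from -0.51 to -0.46. The limma adjusted p became 0.0720, 0.0644 and 0.128 when TGF-β replicate 1, 2 or 3 was dropped, and 0.0733 and 0.105 when LIG replicate 1 or 2 was. It stayed under the threshold without LIG replicate 3 (adjusted p = 0.0159) and without both libraries that lie apart (log2 change -0.47, adjusted p = 0.000782). That pair was picked for lying apart in these same data, and without it 2 libraries per group remain.

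P4HA2, the catalytic subunit of the second form of the enzyme (minus strand of chromosome 5, 132191838 to 132295315), was at 57.0, 59.8 and 57.3 FPKM in the TGF-β libraries and at 50.4, 47.7 and 51.8 FPKM in the LIG libraries. The groups did not overlap, and the gap between the nearest libraries was larger than the range within either group. Means were 58.0 ± 1.54 and 49.97 ± 2.12 FPKM, a log2 change of -0.21 ± 0.06 with a 95% interval of -0.36 to -0.07 before any adjustment over genes (adjusted p = 0.308). P4HA2 was the more abundant catalytic subunit in every library, at 9473 to 12075 fragments.

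P4HA3, the third catalytic subunit (minus strand of chromosome 11, 74235801 to 74311657), was close to absent, at 0.0920, 0.0455 and 0.0917 FPKM in the TGF-β libraries and 0.138, 0.185 and 0.147 FPKM in the LIG libraries. The libraries held 8, 4 and 8 fragments without LIG and 12, 16 and 13 with LIG. The LIG libraries were all higher, the smallest two-sided exact permutation p that 3 against 3 allows (p = 0.1). The ratio of summed fragments was 2.05 (41 over 20, exact binomial 95% interval 1.17 to 3.69). That interval covers counting error only and leaves out the spread between libraries, so it is no test of LIG. Its exons overlap those of PPME1, a phosphatase methylesterase gene on the opposite strand. PPME1 was far more abundant, at 88.2 ± 3.73 and 64.5 ± 1.04 FPKM, and fell with LIG (limma adjusted p = 0.0241; 0.203 without TGF-β replicate 3, passing in 1 of 6 leave-one-out fits). The use of strand in counting is not given in the sources used here, so fragments of the 2 genes cannot be told apart. Exons of P4HA1, P4HA2, P4HB and CRTAP also overlap annotated antisense transcripts; P4HA2-AS1 and P4HA3-AS1 were near 0 FPKM, and the others were not analysed here.

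P4HB, the β subunit of prolyl 4-hydroxylase and also a general protein disulphide isomerase (minus strand of chromosome 17, 81843159 to 81860694), was the most abundant of the 10 genes. It was at 334, 332 and 328 FPKM in the TGF-β libraries and at 316, 312 and 349 FPKM in the LIG libraries. The LIG group surrounded the TGF-β group, and its highest library was LIG replicate 3, the one with the largest summed FPKM. Means were 331 ± 3.19 and 326 ± 20.5 FPKM, with a log2 change of -0.03 (95% interval -0.20 to 0.15; adjusted p = 0.979).

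**Figure D2:**
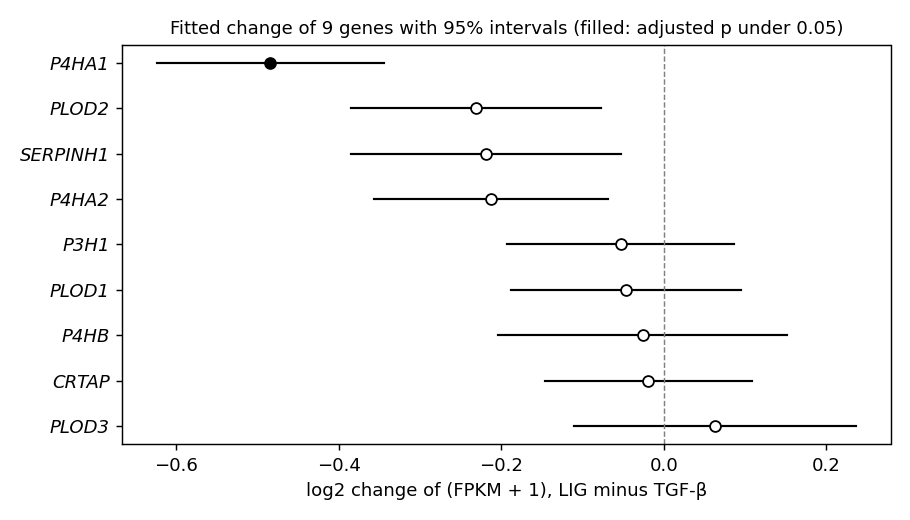
Fitted log2 change of FPKM + 1, LIG minus TGF-β, for the 9 tested genes (points, filled where the adjusted p is under 0.05) with 95% intervals from limma that are not adjusted over genes. The interval of P4HA1 ends at -0.34, those of PLOD2, SERPINH1 and P4HA2 lie below 0 without passing after adjustment, and the other 5 span 0.

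None of the 3 lysyl hydroxylases passed the test. PLOD2, which hydroxylates the telopeptide lysines from which the stable fibrotic crosslinks form (minus strand of chromosome 3, 146069440 to 146163653), was the most abundant. It was at 116.6, 117.8 and 116.9 FPKM in the TGF-β libraries and at 104, 101 and 93.7 FPKM in the LIG libraries. The TGF-β libraries were nearly equal, the LIG libraries were all lower, and the lowest was LIG replicate 3. Means were 117 ± 0.64 and 99.7 ± 5.44 FPKM (log2 change -0.23 ± 0.07, 95% interval -0.39 to -0.08; adjusted p = 0.299).

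PLOD1, which acts on lysines of the helix (plus strand of chromosome 1, 11934205 to 11975538), was at 55.9, 52.3 and 54.5 FPKM in the TGF-β libraries and at 51.0, 52.3 and 54.3 FPKM in the LIG libraries. The groups overlapped (log2 change -0.05, 95% interval -0.19 to 0.10; adjusted p = 0.940). PLOD3, which also attaches glucose to the hydroxylysine sugar (minus strand of chromosome 7, 101205977 to 101218420), was at 27.2, 28.8 and 28.6 FPKM in the TGF-β libraries. With LIG it was at 26.7, 30.6 and 31.4 FPKM, the widest relative spread within a group among the 9 tested genes. It was the only 1 of the 9 with a fitted change above 0 (log2 change 0.06, 95% interval -0.11 to 0.24; adjusted p = 0.929). Its exons overlap those of ZNHIT1 on the opposite strand, which was at 42.8 ± 4.68 and 45.4 ± 5.85 FPKM.

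The 2 genes of the prolyl 3-hydroxylase complex stood close together in both groups. P3H1, the catalytic subunit (minus strand of chromosome 1, 42746335 to 42767084), was at 22.1, 21.7 and 22.2 FPKM in the TGF-β libraries and at 20.5, 20.7 and 22.3 FPKM in the LIG libraries. LIG replicates 1 and 2 lay below and LIG replicate 3 above all TGF-β libraries (log2 change -0.05, 95% interval -0.19 to 0.09; adjusted p = 0.925). CRTAP, the partner without catalytic activity (plus strand of chromosome 3, 33113979 to 33147773), was at 25.7, 25.8 and 26.3 FPKM in the TGF-β libraries and at 25.5, 25.7 and 25.5 FPKM in the LIG libraries. Its fitted log2 change of -0.02 had the narrowest interval of the 9 genes, -0.15 to 0.11 (adjusted p = 0.979).

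SERPINH1, the gene of HSP47 (plus strand of chromosome 11, 75562056 to 75572783), was second to P4HB in level. It was at 128, 137 and 132 FPKM in the TGF-β libraries and at 111, 108 and 122 FPKM in the LIG libraries. All LIG libraries were lower, the nearest being LIG replicate 3. Means were 132 ± 4.62 and 114 ± 6.99 FPKM (log2 change -0.22 ± 0.07, 95% interval -0.39 to -0.05; adjusted p = 0.387).

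Non-overlap of the groups with LIG lower, seen in 4 of the 9 genes, was found in 6.73% of all genes tested, and the opposite, seen in 0 of the 9, in 9.07%. The median fitted change of the 9 was -0.05 on the log2 scale, beside 0.03 for all genes tested, and 8 of 9 were below 0, beside 39.1% of all genes. Without TGF-β replicate 2 and LIG replicate 3, P4HA1, P4HA2, PLOD2 and SERPINH1 were called lower (limma adjusted p = 0.000782, 0.0165, 0.0185 and 0.00679), 4 of 9 beside 2.69% of all genes. In that fit 0 of the 9 were called higher, beside 1.95% of all genes. Both libraries were picked for lying apart in these same data. Dropping them leaves 2 libraries per group and narrows the spread within groups, so these calls are no separate support. The same 4 were called lower, and 0 higher, when libraries were weighted by quality (adjusted p = 1.16e-05, 0.00143, 0.00280 and 0.000767). Of all 10695 genes, 774 (7.24%) were then called lower and 1117 higher.

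Levels per length could be ordered within a group. Without LIG the order of mean FPKM was P4HB, SERPINH1, PLOD2, P4HA2, PLOD1, P4HA1, PLOD3, CRTAP, P3H1 and P4HA3, and no 2 neighbours overlapped between libraries. With LIG, P4HA2 moved behind PLOD1 (49.97 and 52.5 FPKM, with overlapping libraries) and P4HA1 moved from the sixth to the eighth place, behind PLOD3 and CRTAP. P4HA1 and CRTAP then stood at 24.3 and 25.6 FPKM, without overlap.

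Ratios within a library do not depend on its total, and 5 were compared. The ratio of P4HA1 to P4HA2 was 0.578, 0.592 and 0.604 in the TGF-β libraries and 0.490, 0.493 and 0.475 in the LIG libraries, a log2 difference of -0.28 (SD 0.03 within each group). P4HA1 thus made up 36.6% to 37.6% of the summed catalytic subunit FPKM without LIG and 32.1% to 32.9% with LIG. The 3 catalytic subunits together stood to P4HB as 0.270, 0.287 and 0.281 without and 0.238, 0.229 and 0.219 with LIG (log2 difference -0.29, SD 0.04 and 0.06). The ratio of PLOD2 to PLOD1 and PLOD3 was 1.40, 1.45 and 1.41 without LIG and 1.34, 1.22 and 1.09 with LIG (log2 difference -0.22, SD 0.03 and 0.15; -0.15 without LIG replicate 3). In these 3 ratios every LIG library was lower, which gives a two-sided exact permutation p = 0.1, the smallest possible with 3 against 3 (0.167 adjusted over the 5 ratios).

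The other 2 ratios overlapped between the groups. P3H1 to CRTAP was 0.860, 0.841 and 0.846 without LIG and 0.804, 0.807 and 0.876 with LIG (exact permutation p = 0.4, adjusted 0.4). The summed FPKM of the 10 genes was 799, 811 and 800.5 without LIG and 731, 722 and 775 with LIG, against sums of 16 procollagen chain genes of 1585, 1373 and 1602 without and 1293, 1250 and 1173 with LIG. Both sums were lower in every LIG library. Their ratio was 0.504, 0.591 and 0.4998 without and 0.565, 0.578 and 0.660 with LIG (exact permutation p = 0.3, adjusted 0.375), with TGF-β replicate 2 nearer to the LIG libraries than to its own group.

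**Figure D3:**
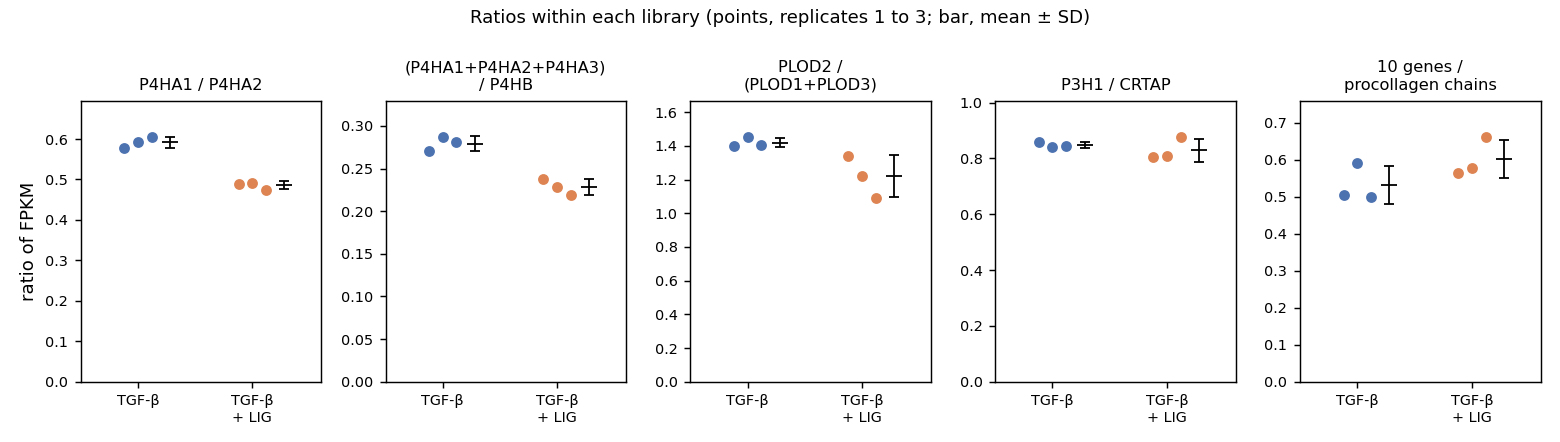
Ratios of FPKM between genes of the same library (vertical axes from 0), TGF-β libraries in blue and TGF-β with LIG in orange, with the mean and SD of each group. P4HA1 to P4HA2, catalytic subunits to P4HB and PLOD2 to the other lysyl hydroxylases are lower in each LIG library, and the other 2 ratios overlap.

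Other genes of procollagen folding and export did not pass. Of 21 listed genes 20 were tested, 0 were called by limma in either direction (6 lower and 1 higher at an unadjusted p under 0.05, beside 4.21% and 4.20% of all genes; 0 by voom), and the median log2 change was -0.03. P3H2, a prolyl 3-hydroxylase of basement membrane collagen, was at 14.6 ± 0.45 and 12.8 ± 0.43 FPKM (adjusted p = 0.433). SEC23A, a coat protein of the vesicles that carry procollagen, was at 90.1 ± 0.51 and 77.3 ± 7.65 FPKM (adjusted p = 0.482). TMEM38B, an endoplasmic reticulum cation channel, was at 6.00 ± 0.46 and 7.02 ± 0.32 FPKM (adjusted p = 0.490).

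Relatives of P4HB and of the hydroxylases were also called in neither direction. Of 14 genes of disulphide exchange in the endoplasmic reticulum 12 were tested, with a median log2 change of -0.01 and 0 genes at an unadjusted p under 0.05 (0 by voom). TXNDC12 was at 66.4 ± 4.47 and 74.0 ± 6.57 FPKM, QSOX1 at 22.2 ± 0.75 and 23.6 ± 1.051, and PDIA6 at 157 ± 10.1 and 146 ± 10.6, with adjusted p from 0.729 to 0.857. Of 10 other 2-oxoglutarate oxygenases that act on proline, lysine, arginine, histidine, asparagine or aspartate residues, 8 were tested. Their median was 0.04, and 0 were lower and 2 higher at an unadjusted p under 0.05, beside the same 4.21% and 4.20% (0 called by voom). P4HTM, a transmembrane prolyl 4-hydroxylase, was at 4.48 ± 0.10 and 5.34 ± 0.57 FPKM, and HIF1AN, the asparagine hydroxylase of hypoxia-inducible factors, at 5.08 ± 0.38 and 5.67 ± 0.45 (adjusted p = 0.514 and 0.755). RIOX1, a ribosomal histidine hydroxylase, was at 7.26 ± 0.24 and 8.22 ± 0.25 FPKM (adjusted p = 0.529).

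The substrates of the machinery and the enzymes that act after secretion had medians further below 0. Of 16 procollagen chain genes 15 were tested, 1 fell and 14 did not pass, with a median log2 change of -0.22. Over all genes tested, 0.505% were called lower and 0.187% higher. At an unadjusted limma p under 0.05, 9 of the 15 were lower and 0 higher, beside 4.21% and 4.20% of all genes. COL3A1 fell from 20.3 ± 2.41 to 9.96 ± 1.598 FPKM (limma adjusted p = 0.0144; 0.0766 without TGF-β replicate 3, passing in 3 of 6 leave-one-out fits). COL1A1, COL5A2 and COL5A1 were at 665 ± 41.0, 149.9 ± 6.66 and 128 ± 16.2 FPKM without and 503 ± 10.4, 114.8 ± 10.3 and 95.1 ± 9.88 FPKM with LIG (adjusted p = 0.118, 0.135 and 0.264). Of 12 genes of extracellular processing and crosslinking 6 were tested, 1 fell and 5 did not pass, with a median of -0.23 and 6 of 6 below 0. At an unadjusted limma p under 0.05, 5 of the 6 were lower and 0 higher, beside the same shares of all genes. LOX, the lysyl oxidase that starts crosslinks from the lysines and hydroxylysines, fell from 31.5 ± 0.92 to 14.8 ± 1.201 FPKM (adjusted p = 0.00185, and at most 0.0334 on leaving out any library). An exon of SRFBP1, annotated on the opposite strand, overlaps LOX, so fragments there cannot be assigned without strand. The level of SRFBP1 is not given here, nor are overlaps of the other genes of these lists. TLL1 and BMP1, which encode procollagen C-proteinases, and LOXL1 were at 5.78 ± 0.37, 28.2 ± 2.14 and 15.1 ± 0.33 FPKM without and 4.13 ± 0.43, 24.1 ± 0.64 and 12.5 ± 0.52 FPKM with LIG (adjusted p = 0.111, 0.399 and 0.200). Without TGF-β replicate 2 and LIG replicate 3, 7 of the 15 chains and 6 of the 6 processing genes were called lower, beside 2.69% of all genes. From both lists 0 were called higher, beside 1.95% of all genes.

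P4HA1, P4HA2, PLOD1 and PLOD2 are known to be induced by hypoxia-inducible factors, which are themselves controlled by prolyl hydroxylases of another family. Of 24 other hypoxia-induced genes 20 were tested, 3 fell, 1 rose and 16 did not pass, and the median log2 change was -0.24. Over all genes tested, 0.505% were called lower and 0.187% higher. At an unadjusted limma p under 0.05, 11 of the 20 were lower and 2 higher, beside 4.21% and 4.20% of all genes. AK4, a mitochondrial adenylate kinase, BNIP3, a mitophagy receptor, and PDK1, an inhibitor of pyruvate dehydrogenase, fell by 0.63, by 0.58 and by 0.38 on the log2 scale (limma adjusted p = 0.0127, 0.0290 and 0.0494). ANGPTL4, an inhibitor of lipoprotein lipase, rose by 0.835 on that scale (adjusted p = 0.00632). These calls passed in 2, 1, 0 and 5 of 6 leave-one-out fits, with adjusted p of up to 0.0766, 0.182, 0.262 and 0.0531. BNIP3L and ALDOC were at 58.5 ± 2.19 and 13.6 ± 0.76 FPKM without and 45.4 ± 1.22 and 10.03 ± 0.71 FPKM with LIG (adjusted p = 0.0521 and 0.0667). VEGFA was at 14.8 ± 0.75 and 18.8 ± 0.61 FPKM (adjusted p = 0.0892). Without the 2 libraries that lie apart, 11 of these genes were called lower and 2 higher, beside 2.69% and 1.95% of all genes.

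**Figure D4:**
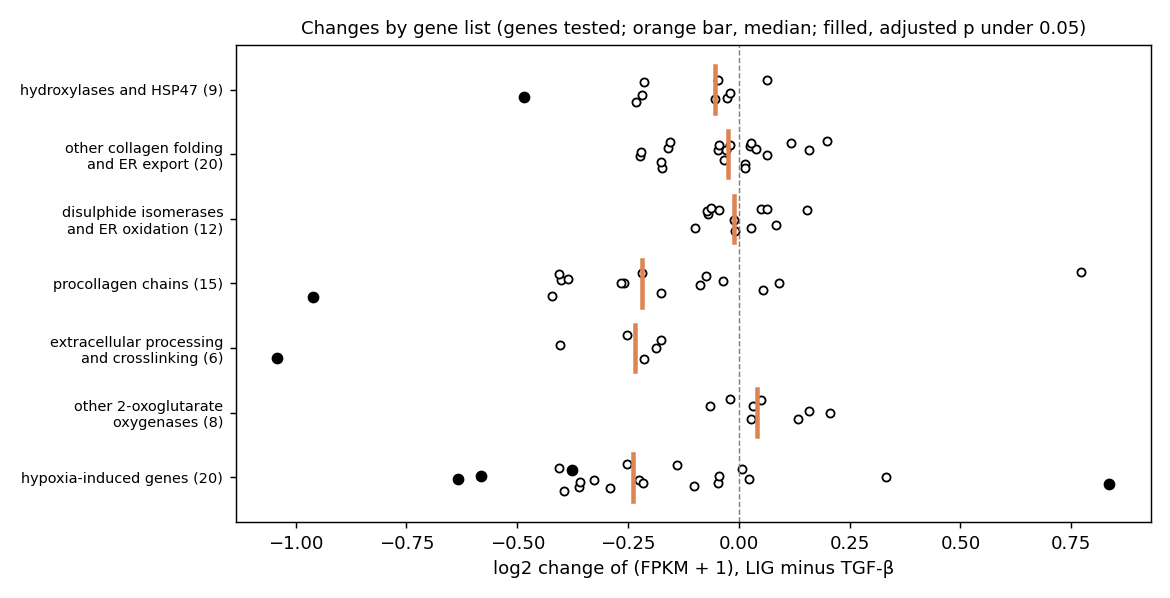
Fitted log2 change of FPKM + 1, LIG minus TGF-β, of each tested gene (points, spread vertically for legibility; filled where the adjusted p is under 0.05) in 7 lists, with the number tested and the median as an orange bar. The hydroxylases and HSP47 have a median of -0.05, the folding genes -0.03, the procollagen chains -0.22 and the hypoxia-induced genes -0.24. Without TGF-β replicate 2 and LIG replicate 3 (not drawn), these medians are -0.099, -0.021, -0.197 and -0.252.

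The genes whose profile over the 6 libraries was most like that of P4HA1 were found by the Euclidean distance between mean-centred log2(FPKM + 1) values, among all genes tested and outside the lists. They were HMGCS1, an enzyme of the mevalonate pathway (distance 0.078), PIM1, a serine/threonine kinase (0.085), SPARC, a collagen-binding glycoprotein (0.093), FGF1, a growth factor (0.109), and SCG2, a secretory granule protein (0.116). Their mean FPKM without and with LIG was 90.8 ± 2.07 and 65.9 ± 2.31 for HMGCS1, 8.86 ± 0.26 and 6.14 ± 0.05 for PIM1, 507 ± 2.89 and 368 ± 13.9 for SPARC, 19.8 ± 0.78 and 14.7 ± 0.42 for FGF1, and 12.4 ± 0.22 and 8.12 ± 0.21 for SCG2. They were chosen for their likeness over these same libraries, so these values are a description without a test. Among the 9 tested genes, P4HA2, SERPINH1 and PLOD2 were nearest to P4HA1, with distances of 0.337, 0.338 and 0.344, and PLOD3 the farthest at 0.698.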

How the data were processed

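Polyadenylated RNA of 6 LX-2 libraries, 3 per group, was sequenced. The authors deposited 1 table of FPKM values with a column for each library. Fastp, HISAT2 2.1.0, DESeq2 and GRCh38.p13 appear, without roles, in the submitters' processing notes; the counter, its annotation and its use of strand are not given in the sources used here.

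Genes with a mean of at least 1 FPKM (10695 of 22701) entered a two-sided limma 3.58.1 fit in R 4.3.3 of group on log2(FPKM + 1), with trended empirical Bayes. Changes are LIG minus TGF-β, and p was adjusted over all tested genes by Benjamini-Hochberg, with a threshold of 0.05. Changes of low genes are understated on this scale. Single values were compared by exact permutation. FPKM values were whole multiples of a step per gene, which gave fragments (100% of 114123 values above 0 whole within 0.01), used for depth and for voom. Gene positions are from GENCODE 29. The fit was tested on simulated data.

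The genes and lists were chosen with earlier results of these data known. The text names the 10 genes, all called genes of each list with up to 3 more of smallest adjusted p, and the 5 genes most like P4HA1. PPME1, ZNHIT1 and SRFBP1 were named for their overlap, after their values were seen. Alternatives were other pseudocounts, filters, scalings and estimation settings, library weights, voom, a replicate block and leaving out libraries. The pair of libraries left out together was picked because it lay apart in these same data.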

Additional observations from a re-analysis of the deposited data

How the results depend on the processing

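P4HA1 was lower in all 19 alternative fits, with log2 changes from -0.515 to -0.461, and passed in 12 of them. The number of the 9 genes called lower, 1 in the comparison reported, was 0 without a filter on low values (22701 genes tested; P4HA1 adjusted p = 0.0508), 0 with the replicate block (P4HA1 adjusted p = 0.135), 0 to 1 on leaving out a library, and 4 with library quality weights or without TGF-β replicate 2 and LIG replicate 3 together. The number called higher was 0 in every alternative. The median log2 change of -0.053 became -0.095 with quality weights, -0.086 with quantile normalization, -0.099 without the 2 libraries and -0.089 to -0.031 on leaving out a library. The log2 change of P4HB ran from -0.077 to 0.005 on leaving out a library, and was reversed, at 0.005, without LIG replicate 2. The other changes of the 9 genes kept their direction, and so did the 5 ratios in their 35 alternatives. Over all genes, 74 were called in the comparison reported, 14 without a filter, 22 with the block, 1891 with quality weights, 497 without the 2 libraries and 11 to 93 on leaving out a library. The causes were not tested. Deviations of same-numbered libraries from their group means correlated at 0.47, -0.57 and -0.34 for replicates 1 to 3. TGF-β replicate 1 and LIG replicate 1 alone deviated together. The 2 libraries that lie apart weigh on these deviations and bear different numbers. The correlations therefore cannot decide whether the numbers pair the samples. Depth limits P4HA3 alone, with 4 to 16 fragments per library against a median of 6638 for the other 9 genes.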
